A study of Mus musculus with 474 samples.

Results

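Top2a encodes the topoisomerase that untangles chromosomes before they separate, and its RNA was used here to divide mouse skeletal muscle into proliferation-high and proliferation-low samples. Of all libraries of the series, 50 high and 50 low ones were chosen by their Top2a level: within each of 10 groups formed by sex and generation, which held 45 to 50 libraries, the 5 libraries with the highest Top2a score were called high and the 5 with the lowest were called low. This gave 50 high libraries (25 labelled female and 25 male), 50 low libraries (25 and 25), and left the rest not chosen. Top2a itself is therefore given as a description with no test, and every other gene was compared between high and low.

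The animals were Diversity Outbred mice, an outbred stock descended from several inbred founder strains so that no pair of animals shares a genome. Both the high and the low libraries came from mice on the same high-fat, high-sugar diet, with no further treatment and no engineered allele in the labels, which give no age. The labels name the tissue as skeletal muscle, and each animal gave 1 library. A number in each title (17, 18, 19, 21 or 23) was read as the generation of the stock, although 17 and 23 are not among the generations that the methods name. Below, generation stands for this number. Because the animals are separate, the p-values below measure the spread between animals.

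In adult muscle the fibres themselves are postmitotic. The tissue also holds cells that can divide, among them satellite cells (the stem cells of the fibre), fibro-adipogenic progenitors, endothelial cells and cells of the immune system. Topoisomerase II alpha and the protein Ki-67 (gene Mki67), which coats mitotic chromosomes, are made in cycling cells and are used as markers of proliferation. In bulk tissue, more dividing cells and more of this RNA per cell cannot be told apart.

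Top2a lay between 0.820 and 16.3 CPM (counts scaled to library size) in the high libraries, with a median of 1.59, and between 0.0225 and 0.256 CPM in the low ones, with a median of 0.1001. The libraries not chosen spanned 0.0905 to 1.79 CPM with a median of 0.383. In counts, the medians were 120 in high and 8 in low libraries. On the deposited score, the step from the fifth to the sixth highest library differed between groups: in males of generation 18 these were 7.563 and 7.556, and in females of generation 21 they were 8.47 and 8.12. At the lower end the fifth and sixth lowest libraries of males of generation 21 were at 6.805 and 6.806. In some groups, libraries just inside and just outside the choice therefore had nearly the same level.

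**Figure D1:**
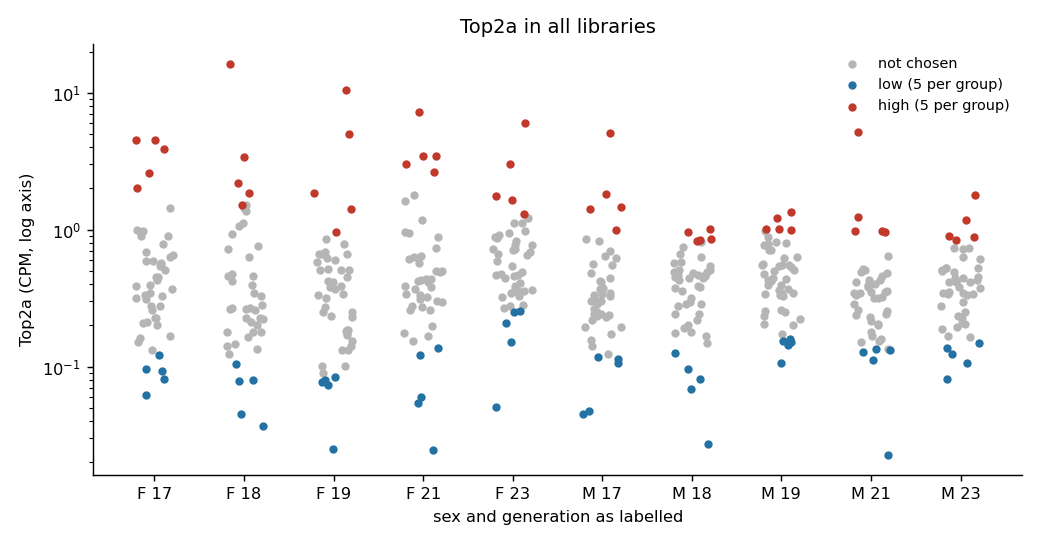
Top2a level in CPM on a log axis (vertical) in every library, by sex and generation as labelled (horizontal), with the 5 high and 5 low libraries of each group coloured. The upper tail was longer in females, with a highest library at 16.3 CPM, than in males, with a highest library at 5.16 CPM.

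Counts were made without a stated strand, so genes that overlap another gene are uncertain, among those named below Ccna2, Ncapg, Cdt1, Ccnd2, Top2b, Cx3cr1, Ciita, Cxcr5, Ccl19, Ptprc, Tcf7, Coro1a, Igtp, Pdgfra, Cdh15, Myh7, Atp2a1, Ndufa2, Rpl3, Rpl28, Odc1, Npc1, Fkbp5, Ciart, Hmga2 and Igf1.

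The total count was 77.2 ± 15.02 M (SD, n = 50) in high and 84.8 ± 16.3 M (SD, n = 50) in low libraries, a difference of -7.56 M (permutation test within groups, 2-sided, p = 0.0187). Library numbers fall into 5 blocks, which held 10, 14, 7, 8 and 11 high and 6, 9, 11, 12 and 12 low libraries. Muscle genes marked both sides: Acta1, the skeletal actin, was at or above 11592.5 CPM and Myh4, the fast myosin IIb, at or above 41077.6 CPM in every chosen library. In 5 libraries of the series the sex-linked RNA went against the label, and 0 of these were among the chosen. One set of libraries stood apart before any test. The summed CPM of 8 B cell genes (among them Cd79a, Cd79b, Ms4a1, Pax5, Cd22, Cr2 and Fcer2a) was at most 4.79 in low libraries, and 23 of the 50 high libraries lay above this, as did 10 of those not chosen. The main results are therefore given also without these 23 high libraries, an alternative added after the data were seen.

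High and low libraries differed widely. Of 18822 genes tested, 3264 were higher in high libraries (17.3%) and 2697 were lower (14.3%) by edgeR's quasi-likelihood test at a Benjamini-Hochberg adjusted p of 0.05. Among genes with a mean of at least 1 CPM the majority turned, with 1963 higher and 2707 lower. The larger changes were nearly all rises: 1466 genes rose and 48 fell by at least 1.5-fold. When libraries were scaled by their total count alone, which moved the median log2 difference of all genes from 0.0016 to 0.073, 4861 of 5369 called genes were higher. Without the 23 high libraries of high B cell sum, 1702 genes were higher (9.04%) and 1346 were lower (7.15%).

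More genes of the cell cycle were higher than lower. Over 7 lists of cell cycle genes, 99 of 159 genes tested were higher, 5 were lower and 55 passed in neither direction, with a median log2 difference of 0.42 beside 0.0016 for all genes. Of these 159, 58 were higher and 4 lower without the 23 libraries, with a median of 0.24. Mki67 (chromosome 7, 135689784 to 135716361, GRCm38) lay between 0.885 and 29.5 CPM in high libraries with a median of 2.34, and between 0 and 0.969 CPM in low libraries with a median of 0.259. In 49 of 50 high libraries it was above every low library. The log2 difference was 3.50 (SE 0.25, edgeR adjusted p = 1.16e-20), higher in 10 of 10 groups, and it was 2.87 (adjusted p = 1.4e-16) without the 23 libraries. Within the 5 blocks of library numbers it was 3.05, 5.26, 3.35, 3.16 and 4.01, of which the first did not pass (adjusted p = 0.342). Top2b, the isoform made also in non-dividing cells, had medians of 58.2 and 55.0 CPM and did not pass (log2 0.09, SE 0.04, edgeR adjusted p = 0.0763). With total-count scaling it was called (0.16, adjusted p = 0.000469).

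Most mitotic kinases and regulators were higher in high libraries. Of 29 mitotic kinases and regulators, 25 were higher and 0 lower (median log2 1.06), and 18 were higher and 0 lower without the 23 libraries (0.69). Cdk1, the kinase that drives entry into mitosis, had a median of 0.269 CPM in high libraries (0 to 2.18) and 0.0501 in low ones (0 to 0.174), with 34 of 50 high libraries above all low ones. Its log2 difference was 2.54 (SE 0.26, adjusted p = 2.52e-13). Ccnb1, its cyclin partner, differed by 3.40 (SE 0.35, adjusted p = 2.08e-13), from a median of 0.0235 CPM to 0.182, with 21 low and 1 high library at 0 counts. Bub1, a kinase of the spindle checkpoint, differed by 3.61 (SE 0.34, adjusted p = 1.46e-14) and had no count in 32 low and 3 high libraries. Pbk and Melk, kinases of dividing cells, differed by 3.28 and 3.04. Plk1, polo-like kinase, rose less, by 0.92 (SE 0.19, adjusted p = 8.26e-05), and no longer passed without the 23 libraries (0.41, adjusted p = 0.164). The 4 members that did not pass, named after their values were seen, were Mastl (0.12), Ube2c (-0.0050), Aurka (-0.09) and Pttg1 (-0.80). Ube2c overlaps Tnnc2, an abundant gene of fast fibres, so its counts are uncertain.

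The machinery that moves chromosomes followed the same direction. Among 29 genes of the spindle and cytokinesis, 25 were higher and 1 lower (median log2 1.05), and 18 were higher and 0 lower without the 23 libraries. Cep55, which acts at the final cut between daughter cells, had a median of 0.142 CPM in high libraries and 0 in low, where 26 of 50 had no count. Its log2 difference was 3.48 (SE 0.32, adjusted p = 9.65e-15). Further members that rose were the mitotic kinesins Kif18b (3.03) and Kif2c (2.46) and the spindle protein Dlgap5 (2.46). The 1 member that was lower was Spag5 (-0.32, adjusted p = 0.0231), named after its value was seen. Of 27 genes of the kinetochore and centromere, 11 were higher and 1 lower, with a median of only 0.24. Knl1, a kinetochore scaffold, rose by 2.73 (SE 0.32, adjusted p = 1.19e-11), Cenpf by 2.20, Sgo1, the protector of centromeric cohesion, by 2.09 and Ndc80, which binds microtubules, by 1.84. Of 14 genes of chromosome structure, 8 were higher and 1 lower. Among them were the condensin subunits Ncapg (2.89) and Smc2 (0.62) and the chromatin protein Hmgb2 (0.68), the last of which did not pass without the 23 libraries (adjusted p = 0.0589).

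Some replication genes were higher in high libraries. Of 34 genes of origin licensing and the replication fork, 15 were higher and 1 lower, with a median log2 difference of 0.15. Without the 23 libraries 5 were higher and 2 lower (0.01). Of all genes, 17.3% were higher and 14.3% lower with all high libraries, and 9.04% and 7.15% without the 23. Clspn, the checkpoint mediator claspin, had medians of 0.253 and 0.0798 CPM and a log2 difference of 1.87 (SE 0.24, adjusted p = 4.55e-10). Dtl (1.38), Cdc6 (1.04) and Cdt1 (1.020) control the licensing of origins and also passed, but without the 23 libraries Cdt1 was at 0.04 (adjusted p = 0.907). Mcm2, a subunit of the replicative helicase, did not pass, with medians of 4.67 and 4.86 CPM (log2 0.04, adjusted p = 0.686). Pcna, the sliding clamp, had a median of 15.7 CPM in low libraries (0.04, adjusted p = 0.422) and was named after its value was seen. In the supply of deoxynucleotides, 2 of 7 genes were higher, with Dck at 0.37 (adjusted p = 0.00028), and 1 was lower, Rrm1 at -0.08 (adjusted p = 0.0414). Of the 7, 0 were higher without the 23 libraries (median -0.02) or in males alone, where Dck was at adjusted p = 0.318 and 0.19, and Rrm1 did not pass without the 23 either (adjusted p = 0.757). Of 34 replication-dependent histone genes tested, 1 was higher, Hist1h2ap (2.70, adjusted p = 3.22e-08), and 2 were lower, under the 17.3% and 14.3% of all genes. Such transcripts mostly lack a poly(A) tail, and the libraries were selected for it.

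**Figure D2:**
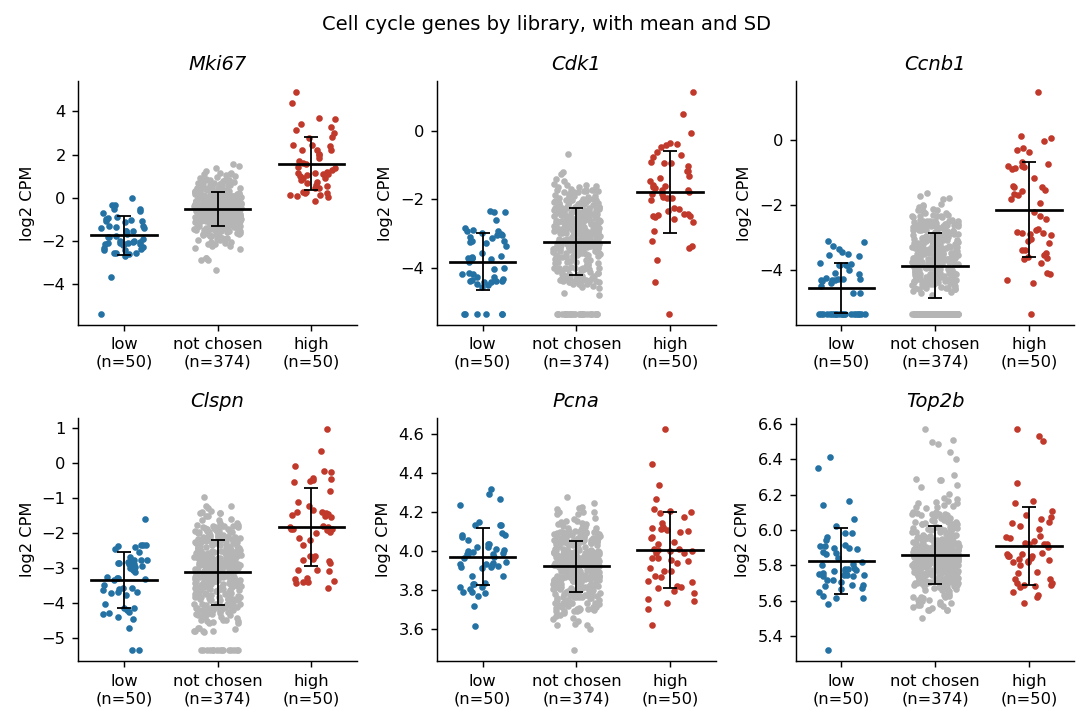
Log2 CPM (vertical, with a prior count of 2) of 6 genes in the low libraries, the libraries not chosen and the high libraries, with the mean and SD as bars. Mki67, Cdk1, Ccnb1 and Clspn were higher in high libraries, with 49 of 50 above every low library for Mki67 and 34 of 50 for Cdk1, whereas 3 of 50 were above every low library for each of Pcna and Top2b.

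Regulators of the G1 and S phases were higher in 13 of 19 cases and lower in 0 (median log2 0.35), and in 4 and 0 without the 23 libraries. Ccnd2, a D-type cyclin that responds to growth signals, rose from a median of 13.9 CPM to 20.997 (log2 0.62, SE 0.07, adjusted p = 9.62e-12), with 26 of 50 high libraries above all low ones. Ccne1, cyclin E1, differed by 1.11 (adjusted p = 8.88e-05) and the transcription factor E2f1 by 0.69 (adjusted p = 1.16e-05), but without the 23 libraries they were at 0.48 (adjusted p = 0.275) and 0.34 (adjusted p = 0.104). Of 14 inhibitors of the cycle, 1 was higher and 3 were lower, beside 17.3% and 14.3% of all genes, and 0 and 1 were called without the 23 libraries. Along Top2a in the libraries not chosen, 0 of them fell. Cdkn1a (p21) was lower by -0.34 (adjusted p = 0.0088), with medians of 33.7 CPM in high and 42.2 in low libraries, and was at -0.21 (adjusted p = 0.281) without the 23. Cdkn1c (p57) was lower by -0.25 (adjusted p = 0.00241), although with total-count scaling it did not pass (adjusted p = 0.0622). Btg1, an antiproliferative gene that is abundant in lymphocytes, was the member that was higher (0.68, adjusted p = 1.27e-06), and it was at 0.04 (adjusted p = 0.792) without the 23 libraries.

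The promoters of many mitotic genes carry a cell cycle homology region (CHR), a short element bound by repressor and activator complexes of the cycle, downstream of CCAAT boxes bound by NF-Y. The promoters of Top2a, Mki67, Cdk1 and Ncapg are shown because their genes moved together here or chose the samples. Each is the stretch of 200 bases before the RefSeq start site (build GRCm38.p6), with capitals for CHR (TTTGAA or TTCGAA) and CCAAT on either strand. The window of Top2a (chr11:99024190-99024389, minus strand) held 4 CHR and 5 CCAAT matches, that of Mki67 (chr7:135716380-135716579, minus strand) 2 and 3, that of Cdk1 (chr10:69352913-69353112, minus strand) 2 and 2, and that of Ncapg (chr5:45669725-45669924, plus strand) 1 and 1.
Top2a: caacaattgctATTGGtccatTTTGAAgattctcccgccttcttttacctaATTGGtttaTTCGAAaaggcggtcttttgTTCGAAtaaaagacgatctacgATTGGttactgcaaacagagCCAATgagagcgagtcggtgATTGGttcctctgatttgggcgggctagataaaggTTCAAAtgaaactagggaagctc
Mki67: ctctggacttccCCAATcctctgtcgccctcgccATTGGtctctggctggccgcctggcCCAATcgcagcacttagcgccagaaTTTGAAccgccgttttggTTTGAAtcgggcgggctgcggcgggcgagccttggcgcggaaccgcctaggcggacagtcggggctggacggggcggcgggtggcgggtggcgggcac
Cdk1: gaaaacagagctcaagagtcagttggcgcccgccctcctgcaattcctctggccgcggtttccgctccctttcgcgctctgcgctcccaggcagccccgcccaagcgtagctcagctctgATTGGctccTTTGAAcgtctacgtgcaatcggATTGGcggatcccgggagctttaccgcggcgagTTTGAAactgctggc
Ncapg: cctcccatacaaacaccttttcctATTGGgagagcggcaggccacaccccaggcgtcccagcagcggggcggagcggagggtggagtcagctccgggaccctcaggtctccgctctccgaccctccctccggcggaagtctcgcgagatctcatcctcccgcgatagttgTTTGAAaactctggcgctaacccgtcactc

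Over windows of 300 bases around the start, 14.1% of the 12701 tested genes with a RefSeq window held a CHR, 38.0% a CCAAT and 5.9% both. Among the mitotic kinases and regulators with a window, 14 of 23 held both, and among the genes of spindle and cytokinesis 15 of 25 did. In the list of origin licensing and the replication fork, 5 of 28 held both. A match of letters is a description and not a bound site.

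Genes of lymphocytes showed the steepest rises of all. Among the 15 largest rises of genes with a mean of at least 1 CPM and a rise in at least 9 of 10 groups, the first were Igkc and Ighd, genes of B cells, and Mki67 was also included. All 12 tested B and plasma cell genes were higher (median log2 5.35), and 1 of 12 was higher without the 23 libraries (0.23). Those libraries were set apart by 8 of these same genes, so this loss was fixed by the choice and is no separate result. Pax5, the factor that fixes B cell identity, lay between 0 and 43.1 CPM in high libraries with a median of 0.148, and between 0 and 0.198 CPM in low ones with a median of 0.0206. Its log2 difference was 6.59 (SE 0.68, adjusted p = 2.01e-13) and 0.22 (adjusted p = 0.806) without the 23 libraries. Cr2, the complement receptor of B cells and follicular dendritic cells, differed by 6.85 and Cd79a, part of the B cell receptor, by 5.90. The constant regions Ighd (IgD, 6.35) and Igkc (kappa light chain, 6.41) mark naive and all kappa B cells. Igkc was still higher without the 23 libraries, by 1.63 (adjusted p = 0.0119), and Ighd was at 0.42 (adjusted p = 0.501). Ighg2c, a constant region of switched antibody, differed by 2.88 (adjusted p = 0.000227) and was at -0.21 (adjusted p = 0.868) without them.

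T cell RNA accompanied B cell RNA. All 10 tested genes of T and NK cells were higher (median log2 4.21), and 6 of 10 without the 23 libraries (1.12). Trbc2, a constant region of the T cell receptor, was at 0 counts in 26 low and 8 high libraries, reached 21.8 CPM in high libraries and at most 0.198 in low, and differed by 6.31 (SE 0.58, adjusted p = 6.79e-15). It was 1.81 (adjusted p = 0.00511) without the 23. Cd8a (6.17) marks cytotoxic T cells and Lck (5.74) is the kinase of their receptor. Cd3e differed by 2.62 (adjusted p = 8.68e-07). Without the 23 libraries Cd8a was at 1.17 (adjusted p = 0.119) and Cd3e at 0.28 (adjusted p = 0.756). The summed CPM of the 10 genes exceeded that of every low library, 2.73, in 23 of the 23 high libraries of high B cell sum and in 3 of the other 27. Genes of lymph node and germinal centre were higher in 6 of 9 cases (median 1.33), and in 2 without the 23 libraries (-0.12). Cxcr5 (4.07) guides lymphocytes into follicles, and its ligand Cxcl13 (2.25, adjusted p = 1.58e-07) and the T zone chemokine Ccl19 (1.55, adjusted p = 7.34e-05) are made by lymph node stroma. Without the 23 libraries these last 3 were at -0.46, -0.12 and -0.20, none of them called. Glycam1 and Madcam1 of this list were not among the genes tested.

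**Figure D3:**
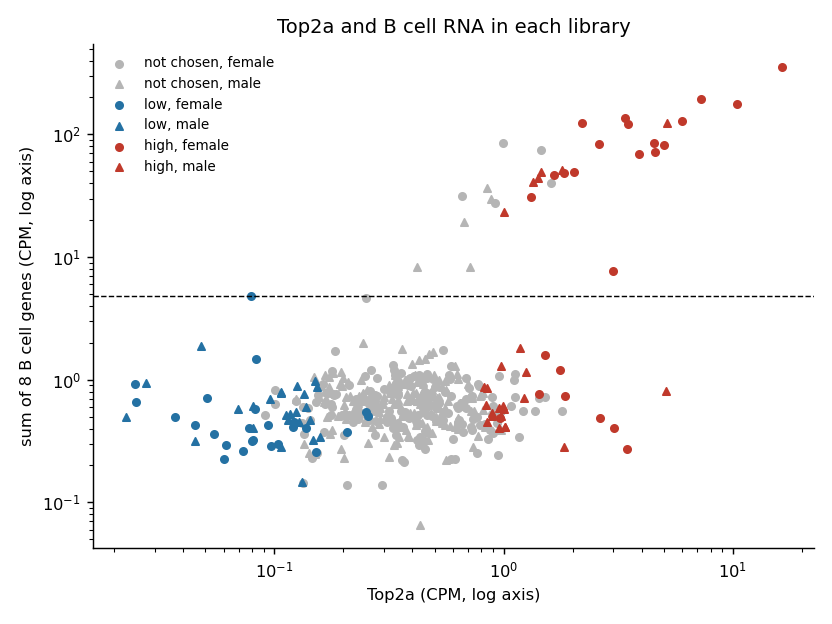
Summed CPM of 8 B cell genes (vertical, log axis) against Top2a CPM (horizontal, log axis) in every library, by part and sex, with the highest low library as a dashed line. Of the 50 high libraries 23 lie above the line, with a median Top2a of 3.02 CPM, and 27 lie under it, with a median of 1.01 CPM.

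The 23 libraries were unevenly spread. They were 17 of the 25 female and 6 of the 25 male high libraries, and they included all 5 of females of generation 17 and 0 of males of generation 18. Their Top2a had a median of 3.02 CPM (1.01 to 16.3), and that of the other 27 was 1.01 CPM (0.820 to 5.10). Mki67 had a median of 4.55 CPM (1.06 to 29.5) in the 23 and 1.86 CPM (0.885 to 12.5) in the 27. Both sets lay above the low median of 0.259 CPM. Whether lymphoid tissue in the sample sets the B cell sum was not tested.

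Several genes of leukocytes were called with and without the 23 libraries. Ptprc (CD45), the surface phosphatase of all nucleated blood cells, had a median of 9.24 CPM in high libraries (1.62 to 196) and 2.29 in low ones (1.28 to 4.93), a log2 difference of 3.07 (SE 0.28, adjusted p = 5.66e-15) that was 1.06 (adjusted p = 2.33e-08) without the 23 libraries. The lymphoid factor Ikzf1 (3.25, and 0.94 without), the integrin Itgal (3.30 and 1.08), the actin regulator Coro1a (2.83 and 0.68), the phosphatase Ptpn6 (2.53 and 0.69) and the kinesin Kif21b (2.44 and 0.41) also passed both ways, as did the GTPase Rac2 (3.12 and 0.68). The proton channel Hvcn1 differed by 2.61 and was at 0.38 (adjusted p = 0.127) without the 23 libraries. Tcf7, a factor of naive T cells, differed by 2.999 and was at 0.07 (adjusted p = 0.81) without them.

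Macrophage genes were higher with and without the B cell-rich libraries. All 16 passed (median log2 0.52), and 15 of 16 without the 23 libraries (0.48). Their summed CPM ran from 73.3 to 409.8 in high and from 67.1 to 162.3 in low libraries, with medians of 167.5 and 104.6, and 29 of 50 high libraries were above all low ones. Adgre1 (F4/80), the classical macrophage marker, had medians of 3.64 and 2.42 CPM (0.66, SE 0.09, adjusted p = 9.99e-09) and was at 0.67 (adjusted p = 2.02e-05) without the 23. Mpeg1, the pore-forming perforin-2, rose by 1.82 (SE 0.18, adjusted p = 1.93e-14), the fractalkine receptor Cx3cr1 by 1.71 and lysozyme Lyz2 by 0.90. Of 9 monocyte and neutrophil genes, 8 were higher (median 1.11) and 4 without the 23 libraries. Ccr2, the receptor by which monocytes enter tissue, had medians of 2.14 and 0.679 CPM and differed by 1.77 (SE 0.16, adjusted p = 2.16e-15), and by 1.70 without the 23. S100a8 of neutrophils differed by 2.61 (adjusted p = 4.97e-07), although only 5 high libraries were above all low ones.

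Antigen presentation by MHC class II was raised in 7 of 7 genes (median log2 2.18), and in 6 of 7 without the 23 libraries (1.29). H2-Aa, a chain of the class II molecule, had a median of 26.8 CPM in high libraries (3.55 to 238.1) and 5.61 in low ones (2.76 to 16.7), a log2 difference of 2.31 (SE 0.22, adjusted p = 9.8e-15). Cd74, the invariant chain, differed by 2.18 and Ciita, the master regulator of class II genes, by 2.66. Without the 23 libraries these were 1.42, 1.29 and 0.88, all called. Interferon-responsive genes were higher in 12 of 14 cases (median 0.70), and in 9 without the 23 libraries (0.64). The GTPases Iigp1 (1.32, adjusted p = 0.00867) and Igtp (1.16, adjusted p = 0.000753) led, each with 4 high libraries above all low ones. The summed interferon list reached 4068 CPM in 1 high library, beside a high median of 49.6 and a highest low library at 113.8.

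Most of the listed markers of matrix-producing cells rose moderately. Of 15 markers of fibro-adipogenic progenitors, 10 were higher and 0 lower (median log2 0.23), and 10 and 0 also without the 23 libraries (0.29). Postn, periostin, had medians of 19.2 and 10.1 CPM and rose by 0.92 (SE 0.09, adjusted p = 7.51e-14), and by 0.76 without the 23. Col3a1, a fibrillar collagen, rose by 0.56 (SE 0.08, adjusted p = 7.86e-08), the surface protein Thy1 by 0.71 and the proteoglycan Lum by 0.40. Pdgfra, the receptor that defines these cells, did not pass (0.11, adjusted p = 0.084, medians 37.0 and 33.9 CPM), but did with total-count scaling (0.18, adjusted p = 0.00376). Endothelial genes were higher in 3 of 17 cases, near the 17.3% of all genes that were higher, and lower in 0 (median -0.01). The peptide apelin, Apln (0.78, adjusted p = 3.21e-06), and its receptor Aplnr (0.57, adjusted p = 0.000132) were among them, with Pecam1 (CD31) at 0.11 (adjusted p = 0.0233), which did not pass without the 23 libraries (0.06, adjusted p = 0.381). Of 10 pericyte and smooth muscle genes, 0 were higher and 4 lower, such as Myh11 (-0.23, adjusted p = 5.44e-05), with 0 called in either direction without the 23 libraries. Schwann cell genes were called in 1 case each way of 10, under the 17.3% and 14.3% of all genes. Of 3 tested genes of bone marrow progenitors, 1 was higher, and the defining Elane and Mpo were not among the genes tested. Of 7 erythroid genes 0 were called, with Hbb-bt at 0.07 (adjusted p = 0.829).

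Adipocyte genes were called higher with the 23 B cell-rich libraries and not without them. Of 10 genes, 9 were higher (median log2 0.89). Without the 23 libraries 0 were called (0.25), although 9 kept a positive difference, beside 9.04% of all genes called higher. Along Top2a in the libraries not chosen, 8 of 10 rose (0.61). There 0 were called once libraries of high B cell sum were left out, with 10 of 10 slopes positive (0.33). Adipoq, adiponectin, had medians of 25.8 CPM in high (2.32 to 82.4) and 9.92 in low libraries (1.13 to 54.9), a log2 difference of 1.00 (SE 0.21, adjusted p = 7.37e-05) that was 0.46 (adjusted p = 0.263) without the 23. Pck1, which supplies glycerol for fat storage, differed by 1.51, and the lipid droplet proteins Plin1 and Cidec by 1.17 and 0.99. The median of the summed list was 677.97 CPM in the 23 libraries, 287.2 in the 27 and 226.97 in the low ones. The part of fat or lymphoid tissue in the result was not tested.

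Of 15 genes of satellite cells and myogenic factors, 1 was higher and 2 lower (median log2 -0.08), beside 17.3% and 14.3% of all genes. In this list 2 were higher and 1 lower both without the 23 libraries (-0.0077) and in males alone (0.06). Pax7, which defines satellite cells, had medians of 1.66 CPM in high (0.610 to 2.67) and 1.74 in low libraries (0.704 to 2.97), and did not pass (-0.09, SE 0.10, adjusted p = 0.518). Myog, the factor of differentiating myoblasts, did not pass either (-0.26, adjusted p = 0.283). The adhesion protein Cdh15 was lower by -0.30 (adjusted p = 4.24e-06) and the myogenic factor Myf6 by -0.24 (adjusted p = 0.00847), the latter at -0.13 (adjusted p = 0.382) without the 23 libraries. The 1 member that was higher was Vcam1 (1.12, adjusted p = 5.17e-12), an adhesion molecule that is made also by activated endothelium and stroma. Of 14 genes of embryonic muscle and regeneration, 0 were higher and 3 lower, beside 17.3% and 14.3% of all genes. Among the 3 were the neural adhesion molecule Ncam1 (-0.25) and the acetylcholine receptor subunit Chrna1 (-0.23). Of these 14, 1 was lower without the 23 libraries, 0 in males alone and 0 along Top2a in the libraries not chosen (median 0.06), and Ncam1 did not pass without the 23 (-0.13, adjusted p = 0.234). Embryonic myosin Myh3 did not pass (-0.33, adjusted p = 0.107).

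Most genes of the fast-fibre and slow-fibre lists were lower by small amounts between high and low libraries. Of 12 fast-fibre genes, 0 were higher and 8 lower (median log2 -0.13), and 0 and 5 both without the 23 libraries (-0.11) and with total-count scaling (-0.06). Atp2a1, the calcium pump of the reticulum, was lower by -0.17 (SE 0.03, adjusted p = 2.43e-05), Actn3 by -0.22 (adjusted p = 0.000569) and the troponin Tnni2 by -0.21 (adjusted p = 1.23e-05). Of 9 slow-fibre genes, 0 were higher and 7 lower (-0.27), and 5 were lower without the 23 libraries (-0.37), but 1 was lower with total-count scaling and 0 in males alone. Myh7, the slow myosin, was at -0.26 (adjusted p = 0.0336) and the troponin Tnni1 at -0.33 (adjusted p = 0.00828). Both lost the call with total-count scaling (adjusted p = 0.151 and 0.0582). Oxidative phosphorylation genes were lower in 59 of 76 cases and higher in 1 (median -0.13), for example Ndufa2 at -0.22 (adjusted p = 0.00282), but without the 23 libraries 2 were lower and 0 higher, and with total-count scaling 1 was lower and 1 higher. Of 16 genes of the tricarboxylic acid cycle 9 were lower and 0 higher, with Ogdh at -0.14 (adjusted p = 4.51e-05). Of 14 fatty acid oxidation genes 4 were lower, beside 14.3% of all genes, with the carnitine transferase Cpt1b at -0.23 (adjusted p = 1.21e-06). In the cycle 0 genes were lower and 1 higher without the 23 libraries, and 0 were called with total-count scaling. Of the fatty acid oxidation genes 1 was lower under each. Cytosolic ribosomal protein genes were lower in 12 of 77 cases and higher in 1, near the 14.3% of all genes that were lower. They were lower in 38 without the 23 libraries (median -0.17), beside 7.15% of all genes, and in 1 with total-count scaling. Along Top2a in the libraries not chosen 40 of the 77 fell (median -0.12), beside 6.31% of all genes. Rpl28 was at -0.19 (adjusted p = 0.00495), and the 1 that was higher was Rpl3 (0.40, adjusted p = 9.6e-06), which was at -0.01 (adjusted p = 0.943) without the 23.

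The largest falls were shallow beside the rises. Otog, which encodes otogelin, fell from a median of 2.22 to 1.25 CPM (log2 -0.80, SE 0.18, adjusted p = 0.000151). Odc1, the first enzyme of polyamine synthesis, fell from 103.4 to 71.5 CPM (-0.53, adjusted p = 0.000117), Npc1, the lysosomal cholesterol transporter, from 79.5 to 59.1 CPM (-0.51, adjusted p = 4.86e-05), the anion exchanger Slc4a3 by -0.54 and the methyltransferase Inmt by -0.51. Of the 15 largest falls chosen by the same rule as the rises, 12 were called without the 23 libraries, these 5 among them, and Ciart (adjusted p = 0.238), Fibin (adjusted p = 0.126) and Hmga2 (adjusted p = 0.22) were not. Along Top2a in the libraries not chosen, 4 of the 15 fell. Inmt was one (-0.45, adjusted p = 0.000965), but the other 4 named here did not pass, with Otog at -0.25 (adjusted p = 0.371), Slc4a3 at -0.06 (adjusted p = 0.763), Npc1 at -0.05 (adjusted p = 0.826) and Odc1 at -0.03 (adjusted p = 0.924). Glucocorticoid-responsive genes were lower in 6 of 11 cases and higher in 0 (median -0.20), and lower in 2 without the 23 libraries. In males alone 1 was lower, and along Top2a in the libraries not chosen 0 fell (median -0.06). Fkbp5, a chaperone induced by glucocorticoids, was at -0.55 (adjusted p = 0.000515) and the metallothionein Mt2 at -0.70 (adjusted p = 0.0138, and 0.0529 without the 23). Fkbp5 did not pass along Top2a in the libraries not chosen (-0.21, edgeR adjusted p = 0.346). Clock genes were lower in 5 of 15 cases, with Ciart at -0.62 (adjusted p = 0.00501), and in 0 without the 23 libraries. They fell in 5 of 15 along Top2a in the libraries not chosen (median -0.17), and in 3 there once libraries of high B cell sum were left out. Immediate-early genes were called in 1 case each way of 12, under the 17.3% and 14.3% of all genes. In the list of insulin-like growth factor and myostatin, 2 of 11 were higher, near the 17.3% of all genes, and 3 lower, with Igf1 at 0.29 (adjusted p = 0.0229). In this list 0 were called either way without the 23 libraries and 0 in males alone.

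**Figure D4:**
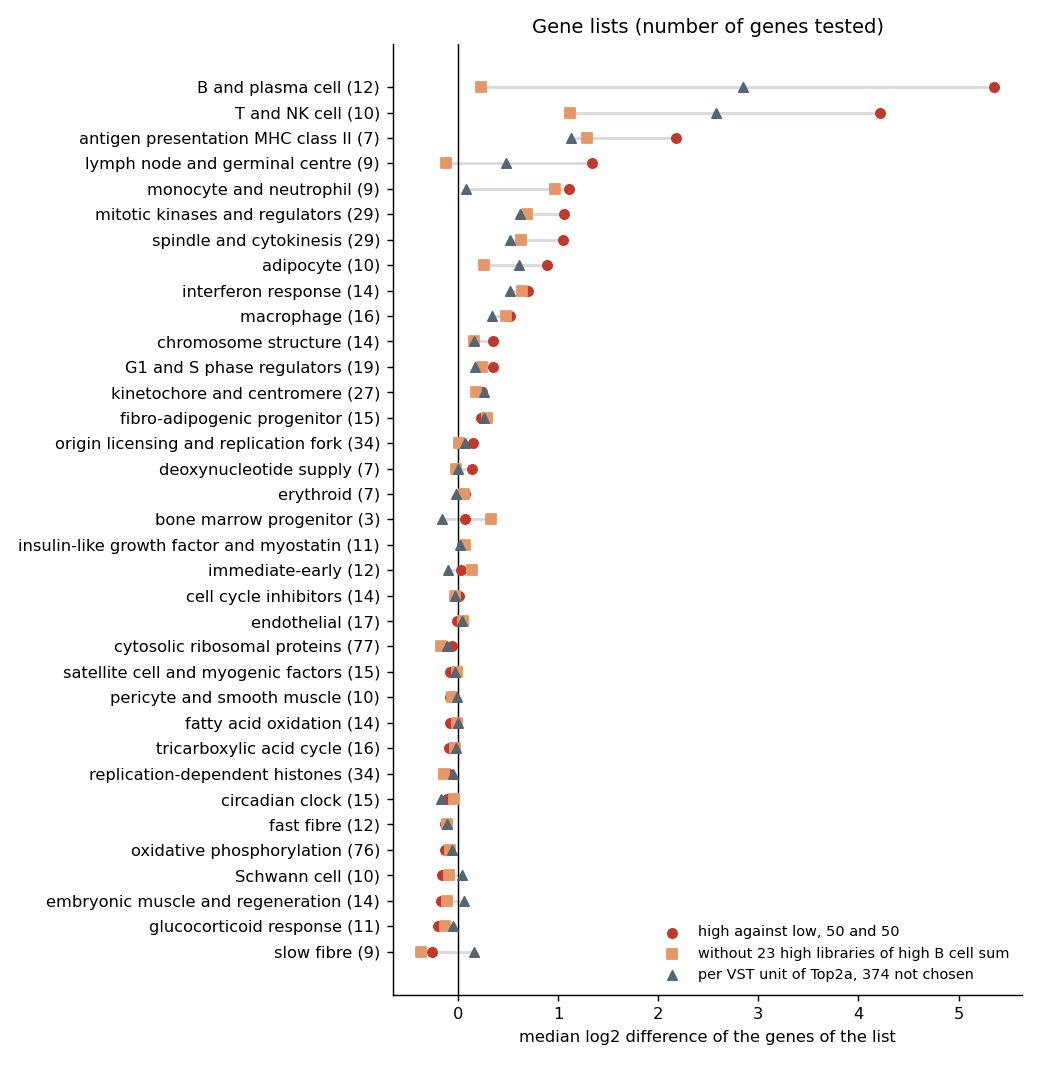
Median log2 difference (horizontal) of each gene list (vertical, with the number of genes tested) for high against low, for the same comparison without 23 high libraries, and per unit of the Top2a score in the libraries not chosen. Without the 23 libraries macrophage genes moved from 0.52 to 0.48 and mitotic kinases from 1.06 to 0.69, and the fall of B cell genes from 5.35 to 0.23 was fixed by how those libraries were chosen.

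The same question was put to the libraries that the choice had left out. Over these libraries, with sex-by-generation group as covariate, the slope along the Top2a score was positive for 1768 of 18822 genes (9.39%) and negative for 1188 (6.31%). Of the 2956 genes called, 2372 were also called between high and low, which is 80.2% of these and 39.8% of the 5961 high-low calls, and 2369 had the same direction in both. Over all genes tested, 31.7% were called between high and low and 15.7% along Top2a. Mki67 rose by 2.20 on the log2 scale per unit of the score (edgeR adjusted p = 5.43e-49). Of 159 cell cycle genes 60 rose and 1 fell (median 0.25), with 16 of 29 mitotic kinases and regulators, 18 of 29 spindle genes and 8 of 34 replication genes rising. Macrophage genes rose in 15 of 16 cases and markers of fibro-adipogenic progenitors in 11 of 15. B and plasma cell genes rose in 10 of 12. A fit without the 10 libraries of high B cell sum, which by its choice removes the B cell signal, called 1751 genes in all (9.3%). Mitotic kinases and regulators still rose in 14 of 29 there. Slow-fibre genes were not called in this range (0 of 9, median 0.16), and monocyte and neutrophil genes in 1 of 9.

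Mki67 had the pattern most like that of Top2a over these libraries, by the Spearman correlation of scores after removal of group means (rho = 0.68). Next came Cenpf (0.40), Ccna2 (0.40), Cdk1 (0.39), Bub1 (0.39), Aspm (0.385), Arpc5 (0.37), Lcp1 (0.36), Kif18b (0.36) and Hmmr (0.35). Lcp1 is the leukocyte plastin and Arpc5 a subunit of the actin-nucleating Arp complex, whereas the others act in the cell cycle. These values describe 1 set of libraries that share their depth and processing. Between high and low, Lcp1 differed by 2.06 with 40 of 50 high libraries above all low ones, Arpc5 by 0.49, Ccna2 by 1.86, Aspm by 2.09 and Hmmr by 2.07.

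High libraries of females stood further from low ones in Top2a than those of males. In high libraries Top2a had a median of 3.02 CPM in females and 1.01 in males, and the low medians were 0.0805 and 0.115, so the contrast by which samples were chosen was itself wider in females. Mki67 had medians of 4.55 CPM in female high libraries (1.51 to 29.5) and 1.59 in male ones (0.885 to 12.5), beside 0.259 and 0.243 in low libraries. Among females 2672 genes were higher (14.2%) and 1799 lower (9.56%), and among males 1246 (6.62%) and 753 (4%). Mitotic kinases and regulators were higher in 24 of 29 cases among females (median log2 1.28) and 15 of 29 among males (0.61), and macrophage genes in 14 and 12 of 16. By the test of the difference itself, 2 of the 29 and 0 of the 16 differed between the sexes. Over all genes that test called 2.31%, of which 52 had a higher log2 difference in males than in females and the others a lower one. Mki67 was one (-1.82, males minus females, edgeR adjusted p = 0.0107). Without the 23 libraries, 17 of them female, 0 genes were called by the same edgeR test, with 717 at an unadjusted p under 0.05. Limma on the deposited scores with all chosen libraries called 2.88%.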

How the data were processed

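RNA-seq of skeletal muscle from 474 Diversity Outbred mice was used, with 1 library per animal made from RNA selected for poly(A). Per the study's methods, the authors joined the reads of both mates, mapped them as single reads to 1 transcriptome combined from the 8 founder strains and estimated counts with EMASE within GBRS. They removed transcripts with few reads and deposited expected counts per gene, which were rounded to whole numbers here. A second table that the authors made holds a variance-stabilized score from DESeq2. Their methods also describe regression on RNA-seq batch, and which of the deposited values carry it is not given in the sources used here. The submitters' processing notes name GRCm38 and DESeq2, and versions and strand are not given in the sources used here. Libraries were ranked by the Top2a score within 10 groups of sex and generation, and 5 were taken at each end. The sums, ranges and levels are in CPM (counts scaled to library size) from library sizes scaled by TMM. Of 20612 genes, 18823 passed edgeR's filter with a minimum count of 10, and 18822 were tested without Top2a. The test was edgeR's quasi-likelihood test with group as covariate and Benjamini-Hochberg adjustment at 0.05 (R 4.3.3, edgeR 4.0.16, limma 3.58.1, DESeq2 1.42.0, and the data.table package, version 1.17.8). Total counts were compared with 100000 permutations within groups. Figures used Python 3.11.15, matplotlib 3.10.9, pandas 2.3.3 and numpy 2.4.6.

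The members and gene lists were chosen with earlier results of these data known. Genes were named by rule: a set of markers, the 15 largest rises and 15 largest falls among called genes with a mean of at least 1 CPM and 1 sign in at least 9 of 10 groups, up to 4 called members of each list with the largest differences (or up to 2 abundant ones where none was called), and the 10 genes most like Top2a. Those rules gave more genes than the text describes, and some of them are not reported here. On simulated data with 18822 genes, the high-low test recovered 90% of genes changed by 0.5 and 99% of those changed by 1 on the log2 scale, and the slope recovered 77% and 100%. The simulation gave every gene the same dispersion, so recovery of genes that vary more between libraries was not measured. Alternatives were other scalings, tests, filters, covariates and numbers of libraries at each end, ranking by Mki67, each sex, each block of library numbers, and omission of 1 group at a time. Those on the B cell sum were added after the data were seen.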

Additional observations from a re-analysis of the deposited data

Results flagged for a closer look

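The high-low difference differed between the sexes for 2.31% of genes by edgeR's test of the interaction. Values below are the log2 difference in males minus that in females, with all adjusted p under 0.05, and 0 genes were called by this test (717 at an unadjusted p under 0.05) without the 23 high libraries of high B cell sum, of which 17 were female. Among leukocyte genes the value was -4.35 for Ighg2c, -2.41 for Tcf7, -2.14 for Coro1a, -2.14 for Ikzf1, -2.09 for Rac2, -2.04 for Ccl19, -1.97 for Hvcn1, -1.90 for Ptprc, -1.88 for Ptpn6, -1.87 for Itgal, -1.86 for Kif21b and -1.55 for Lcp1. Among cell cycle genes it was -2.43 for Knl1, -2.01 for Ndc80, -1.82 for Mki67, -1.81 for Aspm, -1.73 for Dtl, -1.54 for Clspn, -1.22 for Cdt1 and -0.91 for Btg1. It was also -0.60 for Thy1, -0.51 for Rpl3 and -0.43 for Arpc5. Top2a itself spanned a wider range in females, and its part in these differences was not tested.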

How the results depend on the processing

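The share of genes called between high and low was 31.7%, and lay between 26.05% and 31.1% when 1 group of sex and generation was left out. It was 10.6% in males alone, and 0.00531%, 10.2%, 1.73%, 1.54% and 5.63% within the 5 blocks of library numbers, which hold fewer libraries. It was 16.2% without the 23 high libraries of high B cell sum and 17.9% with that sum as a covariate. Along Top2a in the libraries not chosen, 15.7% of genes were called, and 9.30% without libraries of high B cell sum. The sex difference fell from 2.31% of genes to 0 without the 23 libraries. The log2 difference of Mki67 lay between 3.29 and 3.69 when 1 group was left out and was 3.05 (edgeR adjusted p = 0.342) within block 1. With a mean of at least 1 CPM, 1963 of 4670 called genes were higher (42.0%), beside 3264 of 5961 (54.8%), and with scaling by total count 4861 of 5369 (90.5%).

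Some differences changed sign. The 23 libraries were set apart by B cell genes, so a change of such genes without them is no separate result. Without the 23 libraries the differences that changed sign were Ccl19 (-0.20), Cxcl13 (-0.12), Cxcr5 (-0.46), Ighg2c (-0.21), Rpl3 (-0.0076) and the median of the lymph node list (-0.12). With the B cell sum as covariate they were Ccl19 (-0.28), Cdt1 (-0.039), Cxcl13 (-0.11), Cxcr5 (-0.47), Ighg2c (-0.64), Rpl3 (-0.045), Tcf7 (-0.021) and the lymph node median (-0.11). Within block 1 they were E2f1 (-0.22), Igtp (-0.18), S100a8 (-0.86) and Slc4a3 (0.11), within block 2 Myf6 (0.024) and Ncam1 (0.0081), within block 3 Cdkn1c (0.14) and Pecam1 (-0.12), and within block 5 Rpl28 (0.0014). Within block 4 they were Aplnr (-0.017), Cdkn1a (0.12), Igf1 (-0.11), Mt2 (0.43), Myh7 (0.42), Tnni1 (0.15) and the slow-fibre median (0.35). In males alone Igf1 was at -0.033. The cause was not tested. Low counts limit the mitotic genes, many of which had no count in part of the low libraries. No paired analysis was possible because each library is from another animal and no label pairs a high with a low library. Groups of sex and generation were a covariate in the comparison reported.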
